A study of Homo sapiens with 8 samples.

Results

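The genes described here encode the 4 subunits of the GINS complex (GINS1, GINS2, GINS3 and GINS4), the helicase cofactor CDC45, and a group of proteins that hold and guard the replication fork (TIMELESS, TIPIN, CLSPN and WDHD1). These 9 genes were chosen by name for their place in the replisome, out of 78932 gene rows in the deposited tables. The choice was made with earlier results of these data known. Each of the 9 was among the 12618 genes with enough counts to be tested. The cells were HCT116, an established human colorectal cancer line, carrying a dTAG degradation tag on NUDT21, the small subunit of cleavage factor Im. A DMSO group (n = 4) received DMSO with JTE-607, and a dTAGV1 group (n = 4) received dTAGV1 with JTE-607. dTAGV1 directs tagged proteins to destruction, and JTE-607 inhibits CPSF73, the nuclease that cuts pre-mRNA at poly(A) sites. Every library therefore carries the tag and the cleavage inhibitor, and an effect of dTAGV1 without JTE-607 was not measured. Doses, times and whether the line is 1 clone are not given in the sources used here. Polyadenylated RNA was counted by sequencing near transcript 3′ ends.

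DNA is unwound at the fork by a helicase in which CDC45 and GINS bind the MCM ring and switch it on. TIMELESS and TIPIN form the fork protection complex, which keeps the helicase and the polymerases together. CLSPN (Claspin) rides with them and passes the signal of the kinase ATR to CHEK1 when forks stall. WDHD1 (AND-1) tethers DNA polymerase alpha to the helicase. Transcription of many such genes peaks as cells enter S phase under the E2F factors, and HCT116, a proliferating line, is known to express them.

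The promoters of the members are shown first, and their part in the levels of the members was not tested. RefSeq windows from 250 bases before to 50 after a transcript start (GRCh38.p14) were found for 8 of the 9 members. They were searched on both strands for 4 forms of the E2F core, namely the word TTCCCGC, its relative TTGGCGC, and the mixed forms TTCGCGC or else TTGCCGC. At least 1 of these words lay in a window of 7 of the 8 genes, against 25.6% of 9221 tested genes with a window. By single windows, they lay in 7 of the 11 member windows and in 13.0% of all 35116 windows. All promoter words searched here were chosen after the promoter sequences were seen, so the member share is not evidence of an excess. The stretches below are those around the words, 5′ to 3′ on the strand of the gene, with the E2F words in capitals. Positions count from the start, with +1 as its first base. A word that crosses or follows the start is shown in 30 bases, and one that precedes it in 60.
GINS1, chr20:25407667-25407696, plus strand: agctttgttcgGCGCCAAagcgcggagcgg
GINS2, chr16:85688955-85689014, minus strand: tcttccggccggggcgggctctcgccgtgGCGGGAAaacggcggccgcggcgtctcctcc
GINS3, chr16:58392455-58392484, plus strand: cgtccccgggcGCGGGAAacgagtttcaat
TIMELESS, chr12:56449399-56449428, minus strand: ccgcctcgctcTTCGCGCaggcggggaccg
TIPIN, chr15:66356714-66356773, minus strand: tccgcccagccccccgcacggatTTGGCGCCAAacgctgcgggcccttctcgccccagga
CLSPN, chr1:35769965-35769994, minus strand: actctggctggGCGGGAAagcaagaacagc
WDHD1, chr14:55027059-55027088, minus strand: cgagccgaagcGCGGGAAgcagctcttgtg

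GINS2, GINS3, CLSPN and WDHD1 share the word TTCCCGC, which stands reversed (GCGGGAA) on the strand of the gene. In GINS3 and CLSPN it spans the start, from -5 to 2. TIPIN carries TTGGCGC in both orientations, overlapping, from -65 to -56 of its second start, and its other window holds no E2F word. None of the 3 CDC45 windows holds one of these words. Its first window holds 4 CCAAT words, the box bound by NF-Y, between -112 and -40. That stretch is shown with CCAAT, or its reverse ATTGG, in capitals.
CDC45, chr22:19479805-19479883, plus strand: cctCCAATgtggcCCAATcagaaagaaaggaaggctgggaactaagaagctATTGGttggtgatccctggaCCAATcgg
CCAAT was found in 6 of the 8 genes and in 43.6% of tested genes. The words TTTGAA and TTCGAA, known from the CHR element of mitotic genes, were found in 0 of the 8 genes and in 15.4% of tested genes. These matches describe letters in the windows, and binding was not measured.

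**Figure D1:**
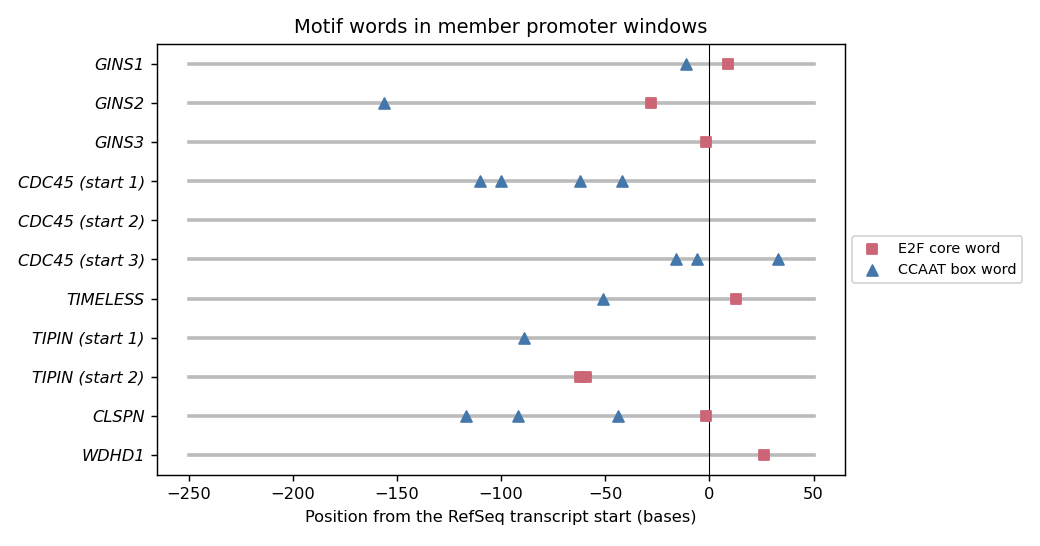
Positions of E2F core words (squares) and CCAAT words (triangles) in the 11 RefSeq promoter windows of 8 members, in bases from the transcript start; grey lines span the window. E2F words sit within 65 bases of the start in 7 genes. No CDC45 window holds one. CCAAT words lie in the CDC45 windows of starts 1 and 3, which overlap and share words, and none lies in that of start 2. The words were chosen after the sequences were seen.

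Libraries held 3447842 to 4291256 reads counted to genes on the sense strand. NUDT21, the tagged gene, had 28.4 to 35.0 CPM with DMSO and 4.42 to 10.2 CPM with dTAGV1, where CPM is counts in each 1000000 after TMM scaling (log2 fold change -1.95, SE 0.18, edgeR adjusted p = 1.36e-09). Of 8 epithelial colon markers 6 were tested, with EPCAM, KRT8, KRT18, KRT19, CDH1 and CLDN4 well counted, while VIL1 had 0 to 3 counts and CDX1 had none. Of 8 markers of blood, stroma, endothelium and liver, COL1A1 had 37 to 73 counts and the others at most 2. The labels do not say that replicates were separate cultures, so p-values measure the spread between these libraries, which may be technical.

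All 9 members were lower with dTAGV1 (edgeR, adjusted p under 0.05), against 28.5% of all tested genes that were called lower. They kept between 30.1% and 61.7% of the DMSO mean. The fall exceeded 2-fold for 7 members, against 9.23% of tested genes. Each member was lower in every dTAGV1 library than in every DMSO library, against 25.1% of tested genes (50.9% in either direction). The median log2 fold change was -1.41 for the members and 0.01 for all tested genes. TMM scaling assumes that most genes are unchanged, so the value for all genes is largely set by the scaling. Fold changes are therefore relative to other genes, and a shift of all RNA together was not measured. Because the members were chosen with earlier results of these data known, these contrasts describe the set and do not test it. Lower counts in bulk samples can come, among other sources, from fewer cells in S phase or from less RNA per cell. The data cannot tell these apart. Counts are of reads near 3′ ends given to a gene, and the use of single poly(A) sites was not measured. Members are given below by role, with fold changes of dTAGV1 over DMSO on the log2 scale and p-values adjusted over all tested genes.

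**Figure D2:**
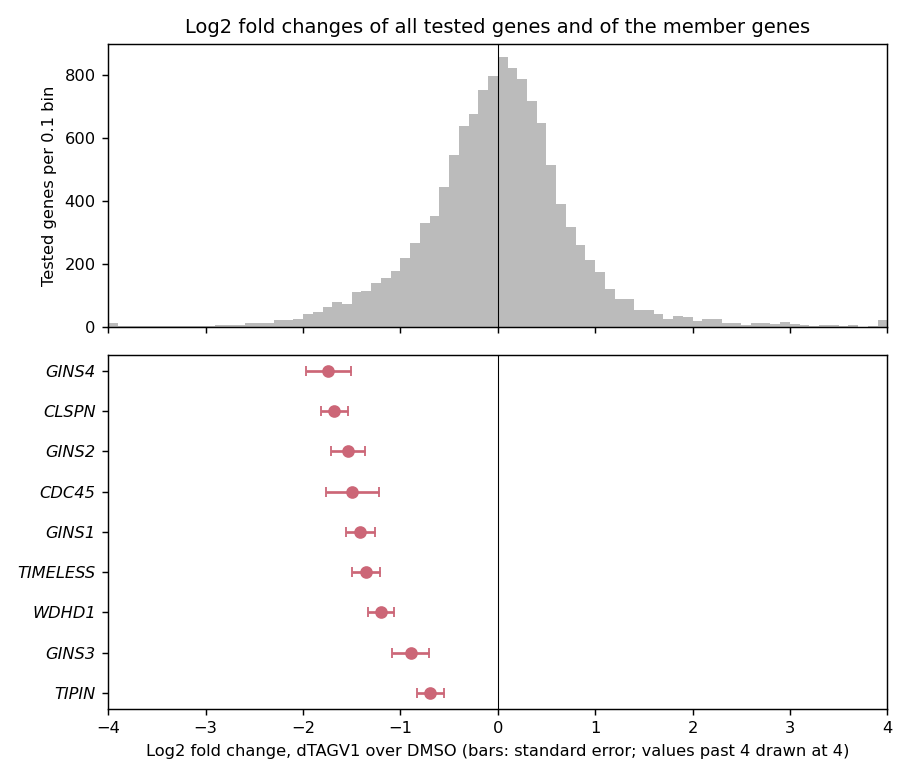
Top, histogram of log2 fold changes (dTAGV1 over DMSO) of 12618 tested genes; bottom, the 9 members with standard errors. The members lie between -1.74 (GINS4) and -0.69 (TIPIN), all left of 0. All tested genes centre on 0.01, a value largely set by the TMM scaling.

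GINS4, the subunit also known as SLD5 and a scaffold of the complex, had the lowest fold change (ENSG00000147536; chromosome 8, 41529206 to 41545046, plus strand, protein-coding). With DMSO, replicates 1 to 4 had 41, 64, 54 and 45 counts, and with dTAGV1 they had 13, 14, 16 and 13, in the same order of replicates as used for each gene here. This equals 13.0 ± 2.21 CPM with DMSO and 3.93 ± 0.706 with dTAGV1 (± SD, n = 4 in both groups), for a log2 fold change of -1.74 (SE 0.23, edgeR adjusted p = 5.25e-07). All 4 dTAGV1 libraries sat close together, at 3.07 to 4.71 CPM, below every DMSO library.

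GINS2, or PSF2, contacts the helicase ring beside CDC45 (ENSG00000131153; chromosome 16, 85676198 to 85690073, minus strand, protein-coding). It had 136, 243, 191 and 164 counts in the DMSO libraries and 45, 46, 50 and 94 in the dTAGV1 libraries. GINS2 fell from 46.8 ± 9.81 to 15.9 ± 4.30 CPM (± SD, n = 4 in both groups), for a log2 fold change of -1.54 (SE 0.17, edgeR adjusted p = 1.61e-07). Among dTAGV1 libraries replicate 4 stood above the other 3, which lay between 12.8 and 14.7 CPM.

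GINS1, or PSF1, completes the core of the complex (ENSG00000101003; chromosome 20, 25407727 to 25452628, plus strand, protein-coding). Counts were 180, 199, 175 and 153 with DMSO against 62, 40, 52 and 94 with dTAGV1. The level moved from 45.4 ± 5.16 to 16.8 ± 4.26 CPM (± SD, n = 4 in both groups), for a log2 fold change of -1.41 (SE 0.15, edgeR adjusted p = 1.40e-08). DMSO replicate 4 was the lowest of its group, and still above the highest dTAGV1 library, replicate 4.

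GINS3, or PSF3, had the fold change nearest 0 among the subunits (ENSG00000181938; chromosome 16, 58295080 to 58406144, plus strand, protein-coding). It was counted 50, 96, 84 and 77 times with DMSO and 32, 28, 39 and 54 times with dTAGV1. Its level was 19.6 ± 4.32 CPM with DMSO and 10.4 ± 2.03 with dTAGV1 (± SD, n = 4 in both groups), for a log2 fold change of -0.90 (SE 0.19, edgeR adjusted p = 0.000243). Here the groups came near each other: DMSO replicate 1 had 13.7 CPM and dTAGV1 replicate 4 had 12.8.

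CDC45, which binds GINS and the MCM ring to complete the active helicase, fell with them (ENSG00000093009; chromosome 22, 19479459 to 19520612, plus strand, protein-coding). It had 40, 70, 42 and 54 counts with DMSO and 11, 10, 12 and 35 with dTAGV1. CDC45 fell from 13.1 ± 2.75 to 4.49 ± 2.54 CPM (± SD, n = 4 in both groups), for a log2 fold change of -1.49 (SE 0.27, edgeR adjusted p = 5.10e-05). Replicates 1 to 3 of dTAGV1 lay between 3.02 and 3.54 CPM and replicate 4 at 8.28, still under the lowest DMSO library at 10.9. Without dTAGV1 replicate 4 the log2 fold change was -2.03 (edgeR adjusted p = 2.57e-07).

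**Figure D3:**
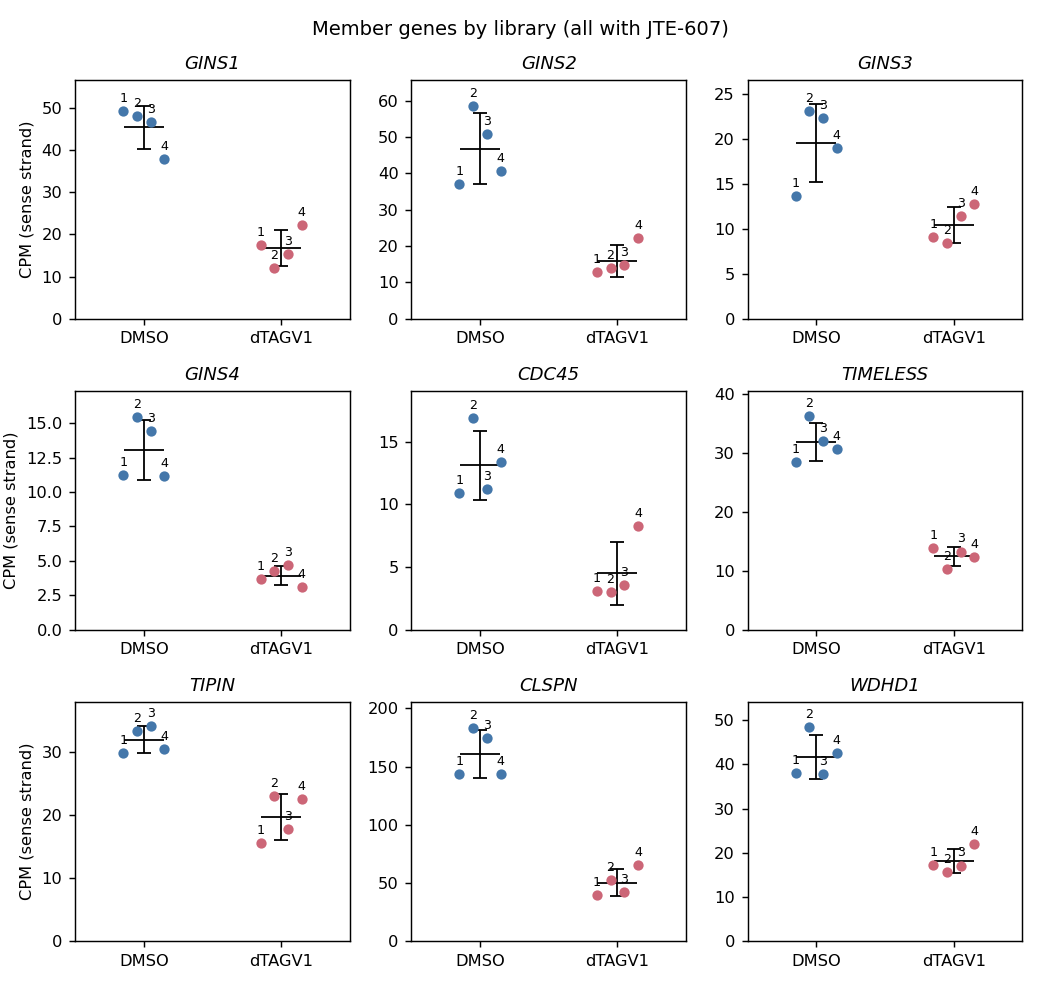
CPM on the sense strand of the 9 members in each library; points are libraries marked with their replicate number, and bars are mean ± SD (n = 4 each). No panel shows overlap between DMSO (blue) and dTAGV1 (red); dTAGV1 replicate 4 is the highest of its group in 6 panels.

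CLSPN had the most counts of the members (ENSG00000092853; chromosome 1, 35720218 to 35769967, minus strand, protein-coding). Libraries had 524, 759, 653 and 579 counts with DMSO and 139, 174, 144 and 276 with dTAGV1. This adaptor of the ATR to CHEK1 signal fell from 161 ± 20.8 to 49.9 ± 11.7 CPM (± SD, n = 4 in both groups), for a log2 fold change of -1.68 (SE 0.14, edgeR adjusted p = 3.74e-08). The lowest DMSO library, at 143 CPM, was far above the highest dTAGV1 library, at 65.3.

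TIMELESS and TIPIN, whose products form 1 complex, both fell. TIMELESS (ENSG00000111602; chromosome 12, 56416373 to 56449403, minus strand, protein-coding) had 104, 150, 120 and 124 counts with DMSO and 49, 34, 45 and 52 with dTAGV1. Its level went from 31.8 ± 3.26 to 12.4 ± 1.58 CPM (± SD, n = 4 in both groups), for a log2 fold change of -1.35 (SE 0.15, edgeR adjusted p = 2.20e-08). The dTAGV1 libraries were tightly grouped, and replicate 4 did not stand out. TIPIN (ENSG00000075131; chromosome 15, 66336206 to 66386746, minus strand, protein-coding) had 109, 138, 128 and 123 counts with DMSO and 55, 76, 60 and 95 with dTAGV1. It fell from 31.9 ± 2.13 to 19.7 ± 3.62 CPM (± SD, n = 4 in both groups), for a log2 fold change of -0.69 (SE 0.14, edgeR adjusted p = 0.000147). This was the fold change nearest 0 among the members: TIPIN kept 61.7% of the DMSO mean where TIMELESS kept 39.1%.

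WDHD1, the link between helicase and polymerase alpha, lay in the middle of the range (ENSG00000198554; chromosome 14, 54938950 to 55027105, minus strand, protein-coding). Counts were 139, 201, 142 and 172 with DMSO and 61, 52, 58 and 93 with dTAGV1. WDHD1 moved from 41.7 ± 5.00 to 18.0 ± 2.74 CPM (± SD, n = 4 in both groups), for a log2 fold change of -1.20 (SE 0.14, edgeR adjusted p = 4.56e-08). Again dTAGV1 replicate 4 was the highest of its group, and no DMSO library came below 37.9 CPM.

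The members shared part of their variation between replicates. Summed over the 9 genes, DMSO libraries held 362, 463, 424 and 369 CPM in replicates 1 to 4, and dTAGV1 libraries 132, 143, 140 and 191. DMSO replicate 2 was the highest of its group for 7 members and dTAGV1 replicate 4 for 6. Among the 3592 tested genes that were called lower, these libraries were the highest of their group for 28.3% and 32.7%. NUDT21 was at 9.64, 8.76, 4.42 and 10.2 CPM in dTAGV1 replicates 1 to 4. Replicate 4 was thus the highest for both, but the other replicates were not in the order of the member sums. dTAGV1 replicate 4 also had the smallest share of unmapped reads of all libraries, at 20.4%. The part of NUDT21 and of unmapped reads in the level of the members was not tested.

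Whether the members fell unequally was examined from the ratio of 2 members within each library, which does not depend on scaling between libraries. All 36 pairs were compared on log2(count + 0.5). No pair passed after adjustment (2-sided exact permutation test, Benjamini-Hochberg adjusted p = 0.0935 at the lowest). The groups did not overlap for 11 pairs, each with an exact permutation p = 0.0286, the smallest that 4 libraries against 4 allow, so a pair could pass the adjustment only if most pairs did not overlap. Groups likewise did not overlap for 33.1% of all pairs of genes called lower and for 50.1% of all pairs of tested genes, so the count for the members is near that of other genes that fell. TIPIN or GINS3 was in 10 of these 11 pairs, and CLSPN with WDHD1 was the other.

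The widest of these differences was that of TIPIN against CLSPN, where the log2 ratio was -2.32 ± 0.101 with DMSO and -1.33 ± 0.149 with dTAGV1 (± SD, n = 4 in both groups), giving a difference of 1.00. Within the fork protection complex, TIMELESS over TIPIN was -0.01 ± 0.0957 and -0.65 ± 0.442, a difference of -0.64. Within GINS, GINS2 over GINS3 was 1.26 ± 0.156 and 0.59 ± 0.201, a difference of -0.67. GINS3 over GINS4 was 0.57 ± 0.205 and 1.38 ± 0.444, a wider difference of 0.81. In each of these pairs every dTAGV1 library lay on the side of more TIPIN or GINS3, and no pair reached the adjusted threshold. On counts irrespective of strand the groups of GINS3 over GINS4 overlapped. Between GINS1, GINS2 and GINS4 the differences were at most 0.24 in size, and the groups overlapped. The largest of them was 0.43 without dTAGV1 replicate 2, 0.37 without dTAGV1 replicate 3, 0.14 without dTAGV1 replicate 4 and 0.47 on counts irrespective of strand.

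**Figure D4:**
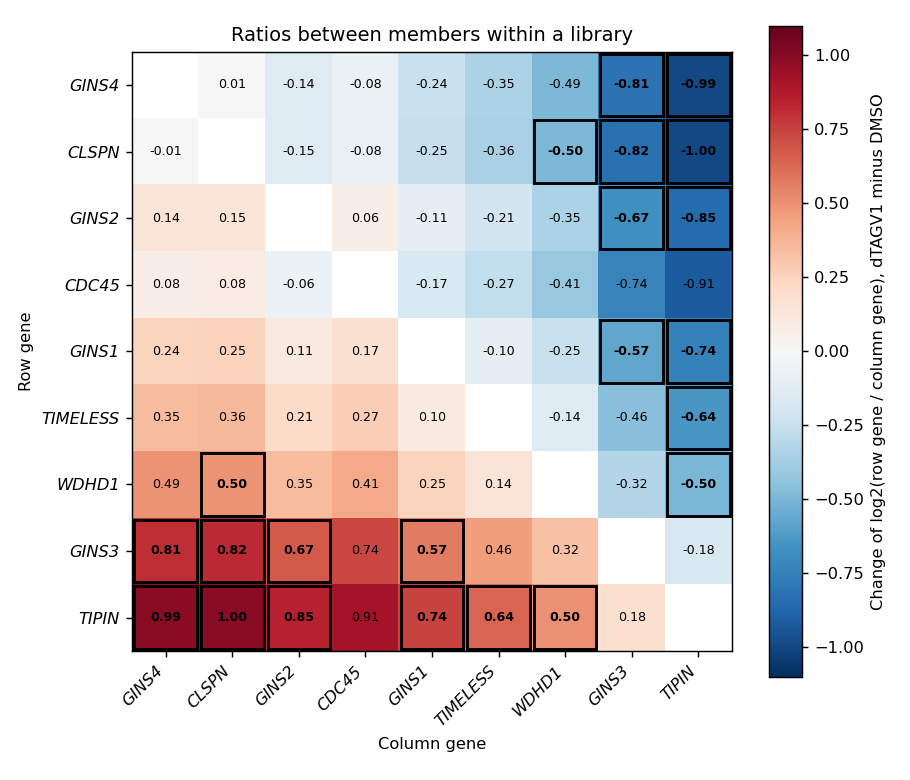
Change of the log2 ratio of each row gene to each column gene (dTAGV1 minus DMSO, log2 of count + 0.5), with genes ordered by fold change. Boxes and bold type mark the 11 pairs whose groups do not overlap; 10 of them include TIPIN or GINS3.

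Partner genes of the replisome were taken from lists written by hand. Over the 6 lists 61 of 64 genes were tested, of which 49 were lower and 5 higher (edgeR, adjusted p under 0.05), against 28.5% and 29.4% of all tested genes. Their median log2 fold change was -0.85. The log2 fold change was below the median of the members for 8 of the 61, or 13.1%, against 4.46% of all tested genes. These lists, like the members, were chosen with earlier results of these data known.

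The helicase ring, its loaders and regulators of loading fell as a group with the members. Of these genes 10 of 10 were lower, with a median log2 fold change of -1.23. They ranged from MCM10, an activator of the helicase, at -1.58 (SE 0.19, adjusted p = 6.25e-06) to MCM6, a ring subunit, at -0.57 (SE 0.11, adjusted p = 5.97e-05). Of 10 origin firing genes 9 were lower and 0 higher, with a median of -1.20. CDK2, the kinase that triggers firing, had the lowest value at -2.00 (SE 0.10, adjusted p = 1.82e-13). TOPBP1, the scaffold that brings GINS to origins, was not called at 0.02 (SE 0.09, adjusted p = 0.836). It had 116 ± 16.9 CPM with DMSO and 118 ± 2.63 with dTAGV1 (± SD, n = 4 in both groups).

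Genes of the synthesis machinery had medians nearer 0. Of 10 tested polymerase genes 8 were lower and 0 higher, with a median of -0.82, from the primase subunit PRIM1 at -1.51 (SE 0.18, adjusted p = 1.02e-06) to POLE4 at -0.13 (SE 0.16, adjusted p = 0.504). Of 10 tested clamp, loader and cohesion genes 9 were lower and 0 higher, with a median of -0.89. RFC5, a clamp loader subunit, was lowest at -1.52 (SE 0.14, adjusted p = 1.88e-09). PCNA, the clamp, was at 0.05 (SE 0.09, adjusted p = 0.696).

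Of 12 checkpoint genes that act around CLSPN 9 were lower and 2 higher, with a median of -0.49. RPA1, which coats single strands, was at -1.49 (SE 0.09, adjusted p = 1.82e-12), and CHEK1, the kinase CLSPN serves, at -0.69 (SE 0.14, adjusted p = 0.000194). HUS1, a subunit of the checkpoint clamp, rose from 30.4 ± 4.05 to 68.1 ± 6.08 CPM (± SD, n = 4 in both groups), for a log2 fold change of 1.17 (SE 0.11, adjusted p = 2.64e-09). RAD9A, another subunit of that clamp, was at 0.60 (SE 0.24, adjusted p = 0.0334), a call that was lost without DMSO replicate 3 or 4, or without dTAGV1 replicate 1 or 2.

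Genes that take the replisome apart or turn CLSPN over numbered 9, of which 4 were lower and 3 higher, shares not far from those of all tested genes, with a median of -0.16. TRAIP, a ligase that marks the helicase for removal, was lowest at -2.05 (SE 0.34, adjusted p = 1.84e-05). The 3 that rose were UBXN7 at 0.52 (SE 0.07, adjusted p = 1.05e-06), CUL2 at 0.50 (SE 0.11, adjusted p = 0.00026) and BTRC at 0.45 (SE 0.09, adjusted p = 0.000126). UBXN7 and CUL2 act in helicase removal at the end of replication, and BTRC recognises CLSPN for destruction.

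Mitosis and G2 genes, which mark dividing cells, moved with the members. This list too was chosen with earlier results of these data known. Of its genes 10 of 10 were lower, against 28.5% of all tested genes, with a median of -1.28. They ranged from CDC20 at -2.01 (SE 0.17, adjusted p = 2.70e-07) to CCNB2 at -0.72 (SE 0.13, adjusted p = 7.25e-05). Their summed level was 2451 to 4413 CPM with DMSO and 1184 to 1623 with dTAGV1. The part of cell cycle position in the levels of the members was not tested.

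**Figure D5:**
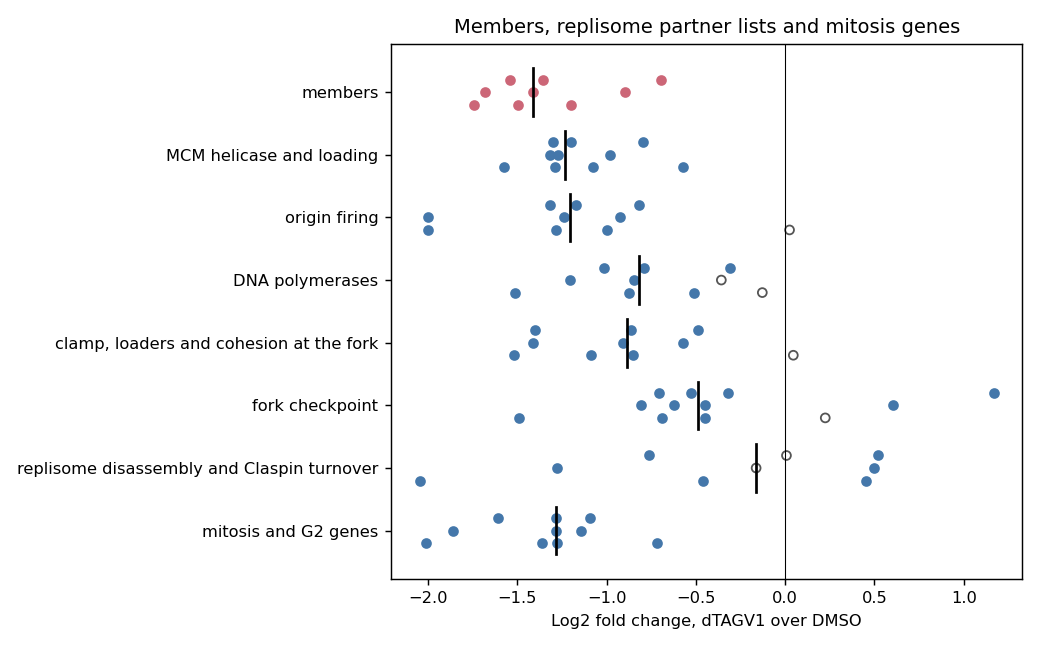
Log2 fold change (dTAGV1 over DMSO) of each tested gene in the members (red), in the 6 replisome partner lists and in the mitosis list (blue); filled points have an adjusted p under 0.05, open points do not, and vertical bars are list medians. Medians run from -1.41 for the members to -0.16 for the disassembly list.

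By profile over the 8 libraries, 4 of the 5 genes most like the mean of the members were MCM3, H2AZ1, HELLS and FANCI; they were not tested for a shared theme. Likeness was the root mean square difference of log2 CPM from the mean member profile, each set to its DMSO mean, over 9212 genes of at least 10 CPM. It was 0.0848 for FANCI, the fifth, a Fanconi anaemia protein. MCM3 is a ring subunit, H2AZ1 a histone variant and HELLS a chromatin remodeller. Among the members WDHD1 lay closest to their mean, at 0.128, and TIPIN farthest, at 0.470.

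The counts without regard to strand gave a second reading of the same reads, in which reads that fit genes on both strands are dropped. On these all 9 members were again lower, against 27.6% of 12832 tested genes. For GINS4 only 14.3% to 69.2% of the sense count was left in a library, and its log2 fold change was -1.93 (SE 0.37, edgeR adjusted p = 6.31e-05). GINS4 overlaps AC009630.1 and AC009630.2 on the opposite strand in GENCODE 29. For CDC45 between 61.1% and all of it was left, and the log2 fold change was -1.32 (SE 0.27, edgeR adjusted p = 0.000183). On the opposite strand the members had 0 to 12 counts in a library, and 0 of the 9 had enough to be tested. On that strand 48.4% of 3324 tested genes were called in either direction.

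The last 100 bases of the GENCODE 29 transcripts were searched for TGTA, the DNA form of the UGUA word that CFIm binds. The longest principal transcript of each member held 0 to 3 matches, with 2 or more in 2 of 9 members and in 21.5% of 10639 tested genes. The hexamer AATAAA lay in the last 40 bases for 3 of 9 members and 62.0% of these genes. Its variant ATTAAA lay there for 1 of 9 members and 1931 of the 10639 genes. These are annotated ends, and whether these cells use them was not examined. The use of single poly(A) sites was not measured.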

How the data were processed

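Poly(A) RNA of 8 HCT116 libraries was prepared with a Lexogen QuantSeq forward kit for 3′ ends, per the labels' protocols. The deposited values are whole-number counts of reads per gene, in the layout of STAR's per-gene output. The submitters' processing notes name FastQC, fastp, STAR, HTSeq and DESeq2 and the build GRCh38, without versions or roles. The annotation and any removal of PCR copies are not given in the sources used here. Counts on the strand of the gene were used. Rows for reads given to no gene (56.7% to 62.8% of reads) stayed out of library sizes.

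Genes were tested with edgeR 4.0.16 in R 4.3.3 (filterByExpr, TMM, robust quasi-likelihood F test, Benjamini-Hochberg adjustment over 12618 genes, threshold 0.05), after the method was run on simulated data. There 194 of 12446 genes were changed. At log2 sizes of 0.5, 1 and 2, 48.4%, 84.4% and 98.5% were recovered, with 5 false calls. In the real data 7302 genes were called, and changes that widespread were not simulated. The standard error is the size of the log2 fold change divided by the square root of F. CPM uses the counts of tested genes. Since each transcript gives reads near its 3′ end, no length correction was made and levels of different genes are not ranked. Coordinates are from GENCODE 29 (GRCh38) and promoters from RefSeq; promoter words were chosen after their sequences were seen.

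The members and lists were chosen with earlier results of these data known. Named genes are the members, NUDT21, the lowest, highest and any higher gene of each partner list, and the 5 genes most like the members, of which 1 is not reported here because the text may not name it; CHEK1 was added after its value was seen. Alternatives were RLE and library-size scaling, DESeq2 1.42.0, limma-voom (limma 3.58.1), other filters, counts irrespective of strand, non-robust dispersions, the replicate number as a block, and leaving out each library. Libraries of a group differed by more than sampling noise (chi-square per degree of freedom 1.82 to 5.09), and all were kept.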

Additional observations from a re-analysis of the deposited data

Results flagged for a closer look

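CDC45 in dTAGV1 replicate 4, at 8.28 CPM, was far from the other 3 libraries of its group, which lay at 3.02 to 3.54 CPM. Its gap to the next library was 0.902 of the range of the group, above Dixon's critical value at the 95% level for 4 libraries. Both groups of all 9 members were examined, 18 groups in all, and chance flags about 1 in 20 groups. In the same library GINS2 had a gap of 0.792 and WDHD1 one of 0.748, which did not pass.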

How the results depend on the processing

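All 9 members kept their direction and their call in all 148 alternative values in which they were tested. Their log2 fold changes stayed between -1.93 and -1.64 for GINS4, -2.03 and -1.32 for CDC45, and -0.79 and -0.60 for TIPIN. Leaving out each library in turn moved the median of the members from -1.61 (without dTAGV1 replicate 4) to -1.30. Genes called over the whole table then numbered 6861 to 7232, and higher fork checkpoint genes 1 to 2. When genes needed a mean count of 100, fewer were tested: 4120 genes were called, and 4 members, 5 origin firing, 5 polymerase, 4 clamp and loader and 5 checkpoint genes were lower. Under that filter, library-size scaling, DESeq2 or no filter, 1 checkpoint gene was higher, HUS1. On counts irrespective of strand 1 origin firing gene, DONSON, was higher. Scaling by library size moved the share of calls that were higher from 50.8% to 43.8% and the median of all genes to -0.06.

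The labels give both groups replicate numbers 1 to 4, without saying that a number marks a shared culture. Deviations from the group means of equal numbers correlated at 0.131, -0.0176, 0.0232 and 0.034, so the numbers were not taken as pairs, and not every library correlated best with its own number. With the replicate number as a block 7434 genes were called, all 9 members stayed lower with a median of -1.42, and 0 pairs of members passed (exact sign-flip permutation p = 0.125, the smallest that 4 replicate numbers allow, so none could pass). Depth limits GINS4 and CDC45 most, with as few as 13 and 10 counts in a library.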

Other observations

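At DONSON, an origin firing gene on chromosome 21 (33559542 to 33588708, minus strand), the strands went opposite ways. This gene was singled out after its values were seen. On the sense strand the DMSO libraries had 199, 273, 258 and 226 counts and the dTAGV1 libraries 119, 99, 111 and 177. The log2 fold change on this strand was -0.82 (SE 0.12, edgeR adjusted p = 1.71e-06). Its opposite-strand counts were 231, 311, 245 and 263 with DMSO and 820, 639, 641 and 839 with dTAGV1, a log2 fold change of 1.46 (SE 0.10, edgeR adjusted p = 1.56e-13). The groups did not overlap on either strand. On counts irrespective of strand DONSON had a log2 fold change of 1.15 (SE 0.09, edgeR adjusted p = 3.07e-11). DONSON overlaps SON on the opposite strand in GENCODE 29, and SON itself had a log2 fold change of 0.12 (SE 0.06, edgeR adjusted p = 0.113). Of the 5 partner genes with enough opposite-strand counts to be tested, 1 was higher and 1, CCNA2, was lower, at -0.56 (SE 0.13, edgeR adjusted p = 0.000565), against 48.4% of 3324 genes called in either direction on that strand.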
